A study of Mus musculus with 45 samples.

Results

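The 65 genes described here encode the ligands and receptors of the classical axon guidance families, measured in mouse hippocampal primary neurons. They were chosen by name alone. The rule takes protein-coding genes whose symbols begin with Sema, Plxn, Unc5, Efna, Efnb, Epha or Ephb, adds the Slits, Robos, netrins, netrin-Gs, Dcc, Neo1, Nrp1 and Nrp2, and asks for a mean CPM (the count scaled to the library's total) of at least 1 over all libraries. The names gave 71 genes among the 54532 in the count table, and 65 of them passed the minimum, as did 13601 genes in all. Sema3b, Sema3g, Plxnb3, Unc5cl, Efna1 and Epha1 lay under it. Ntn3 is not analysed here. Unc50 is among the 65 through the first letters of its name only and is not a netrin receptor, which leaves 32 ligands and 32 receptors.

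Guidance molecules steer growing axons and dendrites by attraction or repulsion. Semaphorins signal through plexins, and the secreted class 3 semaphorins mostly need the coreceptors neuropilin 1 and 2. Slits repel axons through Robo receptors, netrins attract through Dcc or neogenin and repel through Unc5 receptors, and the cell-bound ephrins are read by Eph receptor tyrosine kinases and can themselves signal backward into the cell that carries them. In the mature hippocampus the same molecules act at synapses: ephrin-Bs and EphBs interact with NMDA receptors and shape dendritic spines, Epha4 on neurons binds ephrin-A on astrocytes, Dcc takes part in synaptic plasticity, and semaphorins adjust spine number.

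The cultures came from newborn C57BL/6N mice and were treated on day 10 or 11 in vitro by their labels (day 11 for sequencing by the methods), with 5 culture preparations (replicates 1, 3, 6, 7 and 8) each giving 1 library to each of 9 conditions, 45 libraries in all. Neurons were left untreated (control) or received bicuculline (Bic, 50 µM), a GABA-A receptor antagonist that induces action potential (AP) firing, for 0.5, 1 or 2 h. In the short protocol (SP) 0.5 h of Bic, and in the long protocol (LP) 1 h of Bic, was followed by an equal time, still in Bic, with the sodium channel blocker tetrodotoxin (TTX, 1 µM) or with TTX and bath-applied NMDA (30 µM), and in the LP also with TBOA (50 µM), a blocker of glutamate uptake. The passive effect compares TTX with Bic of the same total duration, the active effect compares TTX/NMDA with TTX, the total effect compares TTX/NMDA with Bic, and glutamate spillover compares TBOA with 2 h Bic. All conditions share the rat serum and B27 supplement of the first culture medium and the mitotic inhibitor AraC added to it. Before treatment it was replaced by a medium for which serum, B27 and AraC are not listed. The cultures hold glia beside the neurons, so that in these bulk libraries fewer cells of a type and less RNA per cell cannot be told apart.

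The libraries held between 11316580 and 81129276 counts on genes. Markers of neurons were abundant in every condition, with a mean summed level of 5232 CPM for 5 pan-neuronal genes in the control libraries, where 6 astrocyte genes summed to 515 CPM and 6 microglial genes to 5.81 CPM. Some libraries stood apart for the guidance genes. The control library of preparation 3 was the lowest of the 5 controls for 33 of the 65 genes and the libraries of preparation 8 were the lowest for 35 genes after 1 h Bic and for 39 after 2 h Bic. Levels below are CPM with TMM scaling over all libraries, each mean is given ± SD with n = 5 preparations, and libraries are listed in the order of preparations 1, 3, 6, 7 and 8. Log2 fold changes are given ± SE, and adjusted p-values come from the quasi-likelihood test of edgeR, adjusted after Benjamini-Hochberg over every gene with a read in the libraries compared. A gene is called at an adjusted p under 0.05. Genes with a mean CPM of 1 or more over the 45 libraries are named expressed genes below, and the block is the same test with the preparation as a term.

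In untreated neurons the guidance genes spanned a wide range of levels per kilobase of exon. Efnb3, the most abundant, stood at 92.4 ± 1.98 CPM per kb, above Plxna1 at 49.0 ± 8.04, Sema6b at 39.8 ± 2.97, Epha4 at 30.2 ± 3.62 and Neo1 at 28.7 ± 2.14 CPM per kb. The last 2 lay within their spread of each other. Among the families, the Slits ran from 4.27 ± 0.537 CPM per kb for Slit2 over 18.1 ± 5.21 for Slit3 to 27.2 ± 4.23 for Slit1. Dcc, the attractive netrin receptor, stood at 2.84 ± 0.926 CPM per kb, and the netrins Ntn4 and Ntn1 at 2.65 ± 0.205 and 1.24 ± 0.0642 CPM per kb. Epha2 and Robo3 were at the bottom of the order with 0.143 CPM per kb each.

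Bicuculline raised a small group of guidance genes with time. After 0.5 h of Bic none of the 65 genes was called by edgeR, against 0.289% called higher and 0% called lower of all genes tested. At an unadjusted p under 0.05 there were 3, namely Sema6a (0.21), Unc5b (0.24) and Unc50 (−0.18 on the log2 scale), and the block also called 0. After 1 h, 2 of 65 genes were higher and 0 lower, against 0.965% and 0.195% of all genes and 1.98% and 0.419% of expressed genes, and both were ephrin-Bs: Efnb2 rose by 0.36 ± 0.08 (adjusted p = 0.0036) and Efnb1 by 0.40 ± 0.10 (adjusted p = 0.017), each higher in 5 of 5 preparations and with no overlap between the groups. Efnb2 was not called without preparation 1 (adjusted p = 0.057), nor Efnb1 without preparation 6 or 7 (0.098 and 0.12). With the block 4 were higher, with Sema4g and Plxnb1 added, against 2.92% of the genes it tested called higher and 1.15% lower.

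After 2 h of Bic, 14 of 65 guidance genes were higher and 2 lower than in the control, 16 in all. Among all genes tested, 4.24% were called higher and 4.78% lower, and among the 13601 expressed genes these shares were 8.18% and 10.4%. The block raised the count to 24 genes, 20 higher and 4 lower, against 14.4% and 15% of the genes it tested. Without preparation 3, 13 were higher and 2 lower, and without preparation 8, 16 were higher and 2 lower. The 14 were 8 ligands and 6 receptors, and they came from several families: 5 of 13 class 4 to 7 semaphorins, both neuropilins, 2 of 3 ephrin-Bs and 1 each of the plexins, Slits, Unc5 receptors, EphAs and EphBs. None of the 5 class 3 semaphorins, 3 Robos, 2 netrins or 2 netrin-Gs was called. The median change of the 65 genes was 0.10 on the log2 scale, beside −0.01 for all genes tested.

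The clearest rises were in an ephrin-B, an EphB and 2 genes of other families. Efnb2, a transmembrane ligand of EphB receptors and of Epha4, stood at 96.5, 92.6, 97.1, 97.3 and 102 CPM in the control libraries and at 197, 178, 179, 185 and 147 CPM after 2 h Bic. The groups did not overlap, and the intermediate times lay between them in order, with means of 103 ± 5.36 CPM after 0.5 h and 125 ± 7.74 CPM after 1 h. Its change after 2 h was 0.86 ± 0.08 (adjusted p = 1.8e-10).

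Ephb3, a receptor for ephrin-Bs, stood at 17.5, 13.5, 15.9, 13.3 and 14.6 CPM in the controls and at 26.2, 26.7, 26.8, 27 and 26.1 CPM after 2 h Bic. All Bic libraries were above all controls, and the rise was 0.83 ± 0.09 (adjusted p = 8.7e-09). Sema4c, a membrane-bound semaphorin that signals through Plxnb2, stayed at 17.5 ± 2.2 CPM after 0.5 h and 19.1 ± 2.25 CPM after 1 h, beside 18.3 ± 1.77 CPM in the control, and reached 29.9, 29.2, 32.4, 30.1 and 36.8 CPM after 2 h (0.78 ± 0.09, adjusted p = 3.4e-08). Its receptor Plxnb2 was not called (0.11 ± 0.09, adjusted p = 0.51).

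Epha2 was the least abundant of the genes that rose. Its mean over the 45 libraries, 1.02 CPM, was just over the minimum of 1, and its control mean was 0.669 CPM. It is thus among the 65 only through conditions in which it was higher, which limits its place in the counts of genes that rose. Its control libraries stood at 0.609, 0.816, 0.343, 0.900 and 0.677 CPM and its 2 h Bic libraries at 1.00, 1.54, 1.30, 1.48 and 0.985 CPM, which did not overlap. The rise of 0.88 ± 0.25 (adjusted p = 0.019) was not called without preparation 6 (0.68, adjusted p = 0.13).

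Efnb1 (0.51 ± 0.09), Unc5b (0.49 ± 0.11), a netrin receptor that mediates repulsion, Sema6a (0.48 ± 0.09) and Sema4g (0.36 ± 0.08) completed the 8 largest rises, with adjusted p-values from 2.0e-04 to 0.0027. The other 6 rose by 0.28 to 0.34, and among them Nrp1 went from 169, 128, 172, 180 and 141 CPM to 212, 189, 206, 209 and 193 CPM (0.34 ± 0.09, adjusted p = 0.0064) with no overlap. Nrp2 (0.28 ± 0.09, adjusted p = 0.032) overlapped between the groups and was not called without preparation 1 or 3 (0.075 and 0.11). Slit1 (0.29 ± 0.09, adjusted p = 0.028) also overlapped and was not called without preparation 6 or 7 (0.054 and 0.051). The 2 genes that fell were Efna2, a ligand of EphA receptors, by 0.38 ± 0.10 (adjusted p = 0.011), and Sema4b, by 0.36 ± 0.10 (adjusted p = 0.012). Neither was called without preparation 1, and Efna2 not without preparation 7.

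**Figure D1:**
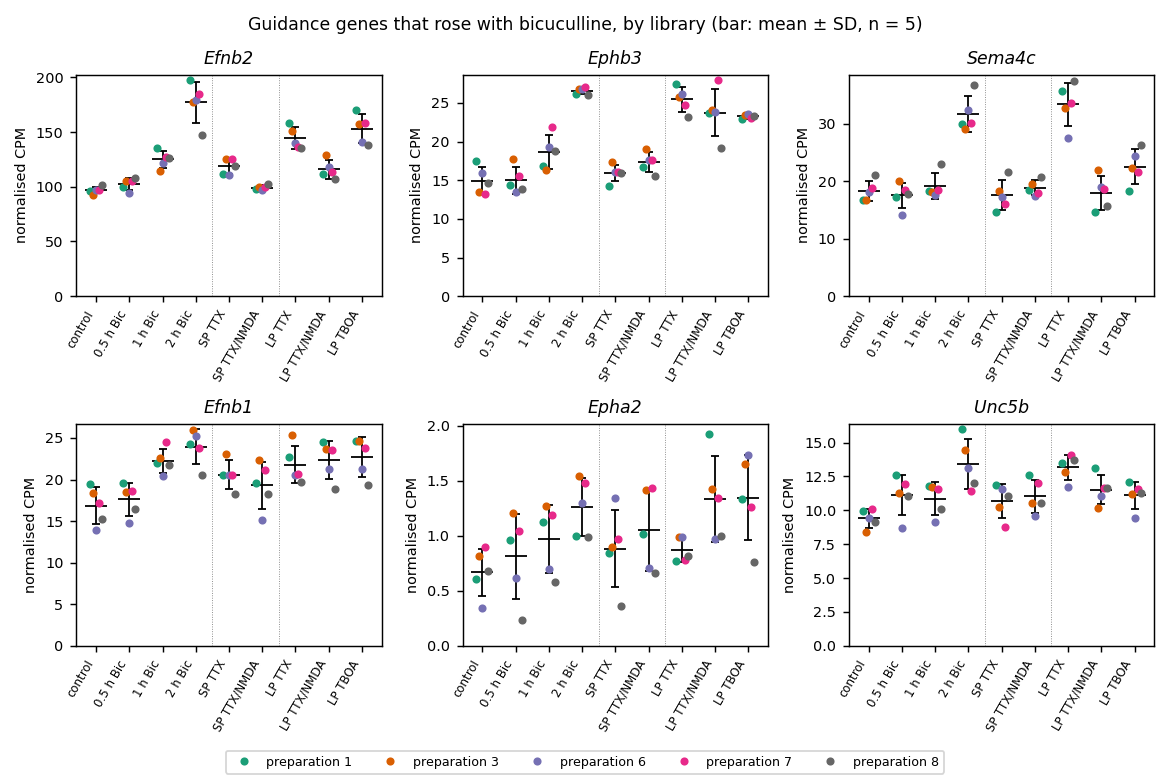
Normalised CPM (vertical axes, from 0) of 6 guidance genes that rose with Bic, in each of the 9 conditions (horizontal axes); each point is 1 library, coloured by preparation, and the bars are mean ± SD of 5. Efnb2 climbs from 97.0 CPM in the control over 125 CPM at 1 h to 177 CPM at 2 h, while Sema4c rises only at 2 h.

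The promoters of 3 of the 4 genes with the largest rises after 2 h Bic are printed because the cAMP response element, the site that CREB binds, is built on the letters TGACG, and CREB is a main mediator of activity-driven transcription. The sequences are the bases before the RefSeq start site in GRCm38.p6, on the strand of the gene, without bases that GENCODE places inside the gene. Capitals mark TGACG on either strand. The Epha2 window is chr4:141300971-141301220 (plus strand), that of Efnb2 is chr8:8661243-8661492 (minus strand) and that of Ephb3 is chr16:21204545-21204754 (plus strand).
Epha2: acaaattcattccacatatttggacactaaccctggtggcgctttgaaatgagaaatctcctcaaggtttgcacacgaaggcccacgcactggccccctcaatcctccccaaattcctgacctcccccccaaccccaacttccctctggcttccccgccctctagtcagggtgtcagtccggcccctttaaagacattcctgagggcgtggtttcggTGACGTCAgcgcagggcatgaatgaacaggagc
Efnb2: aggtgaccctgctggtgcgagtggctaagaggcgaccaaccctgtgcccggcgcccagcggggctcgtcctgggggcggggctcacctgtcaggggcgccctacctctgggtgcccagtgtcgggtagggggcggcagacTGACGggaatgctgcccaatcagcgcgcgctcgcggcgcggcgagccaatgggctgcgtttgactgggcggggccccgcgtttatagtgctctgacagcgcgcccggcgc
Ephb3: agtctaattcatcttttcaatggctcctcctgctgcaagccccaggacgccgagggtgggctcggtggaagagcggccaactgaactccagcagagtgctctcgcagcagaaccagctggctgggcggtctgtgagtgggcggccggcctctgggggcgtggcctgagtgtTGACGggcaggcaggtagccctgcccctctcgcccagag

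Epha2 holds the full palindrome TGACGTCA from 33 to 26 bases before the start, in which TGACG occurs on both strands and overlaps itself. Efnb2 holds TGACG 110 to 106 bases and Ephb3 79 to 75 bases before the start. The fourth gene, Sema4c, has 2 RefSeq start sites and neither window holds TGACG. Of the 32851 mouse promoters of 250 bases in the RefSeq table, 17.8% hold TGACG and 1.55% hold TGACGTCA on either strand. Of the 71 promoters of guidance genes, 9.86% and 1.41% do. Other letters searched, with N for any base, were TGANTCA (4.23% of guidance promoters, 6.75% of all), GCGTGGGCG (2.82% and 0.536%) and GGGGCGGGG (25.4% and 10.4%). The last was found in the windows of Efnb2 and Sema4c, and TGANTCA in that of Sema4c. Promoters were found for 56 of the 65 genes. TGACG was in the promoters of 4 of the 12 genes that rose after 2 h Bic and had a promoter (Efnb1, Efnb2, Epha2 and Ephb3), and of 3 of the other 44 (Epha4, Sema3d and Unc5c). Among the first, Epha2 is one of the 65 only through conditions in which it was higher. These are counts of letters in a window, not of bound sites, and a part of CREB in these rises was not tested.

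When TTX stopped AP firing, guidance genes were called in the LP but not in the SP. In the SP, none of 65 was called, against 0.0157% of all genes called higher and 0.252% lower. The block and DESeq2 also called 0, and 4 genes had an unadjusted p under 0.05 in edgeR. In the LP, 1 gene was higher and 7 were lower, against 3.03% and 1.62% of all genes and 6.84% and 3.6% of expressed genes. The genes that fell were Sema5b (−0.33), Unc5a (−0.32), Efnb2 (−0.30), Sema6c (−0.30), Ntng2 (−0.28), Sema6b (−0.28) and Sema4f (−0.27), with SEs between 0.06 and 0.10. They are 6 ligands, with the netrin-G Ntng2 counted as one, and the netrin receptor Unc5a. Efnb2 and Sema5b among them were also called higher in 2 h Bic than in the control, a comparison that shares the 2 h Bic libraries. Efnb2 stood at 144 ± 9.89 CPM in LP TTX, between its 2 h Bic and its control level. Sema5b was not called in any of the 5 fits that leave out 1 preparation (adjusted p from 0.053 to 0.14), Sema6c not without preparation 3, 6 or 7 (0.057 to 0.095), Sema6b not without 7 (0.069) and Sema4f not without 6 (0.061), while Efnb2, Unc5a and Ntng2 were called in all 5. In 1 fit of all 45 libraries 3 genes were called, Efnb2, Sema6b and Sema4f, and not Unc5a (0.058), Sema5b (0.080), Ntng2 (0.098), Epha4 (0.12) or Sema6c (0.16).

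The gene that was higher in LP TTX was Epha4, by 0.22 ± 0.07 (adjusted p = 0.048). This call did not hold in 4 of the 5 fits without 1 preparation, those without preparation 1, 3, 6 or 7, where the adjusted p lay between 0.058 and 0.11. Sema4c (0.07 ± 0.08) and Ephb3 (−0.07 ± 0.07), both raised by 2 h Bic, were not called in the passive effect. The block called 30 genes, 5 higher and 25 lower, against 15.7% and 16.2% of the genes it tested, and without preparation 6 or 7 the number called was 4. No difference between the LP and SP passive effects was called for any of the 65 genes by edgeR without or with the block, against 0.187% of all genes called higher and 0.0699% lower, and 6 had an unadjusted p under 0.05.

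With NMDA, guidance genes of every family but the netrins were called lower. In the SP active effect, 17 of 65 genes were lower and 0 higher, against 3.32% and 0.956% of all genes tested and 7.8% and 1.73% of expressed genes. In the LP active effect, 35 were lower and 11 higher, against 11.8% and 11.6% of all genes and 26.9% and 20% of expressed genes. The block called 19 lower and 2 higher in the SP and 39 lower and 12 higher in the LP. Its shares over all genes it tested are not given here for the active effects. The SP median of the 65 changes was −0.11, beside 0.04 for all genes tested and 0.01 for expressed genes, and the LP median was −0.26, beside 0.11 and −0.01.

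By role, 16 of 32 ligands and 19 of 32 receptors fell in the LP active effect, and 7 ligands and 4 receptors rose. All 8 plexins were called, 6 lower and 2 higher. Both neuropilins and all 3 Slits fell, and Robo1 and Robo2 with them, while both netrins rose and 4 of the 6 netrin receptors fell. Among the Ephs, 3 of 8 EphAs and 2 of 5 EphBs fell and 1 of each rose. In the SP active effect the 17 genes that fell held all 3 Slits, both neuropilins, Robo1 and Plxna1, Plxna2 and Plxna4, and all 17 also fell in the LP.

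**Figure D2:**
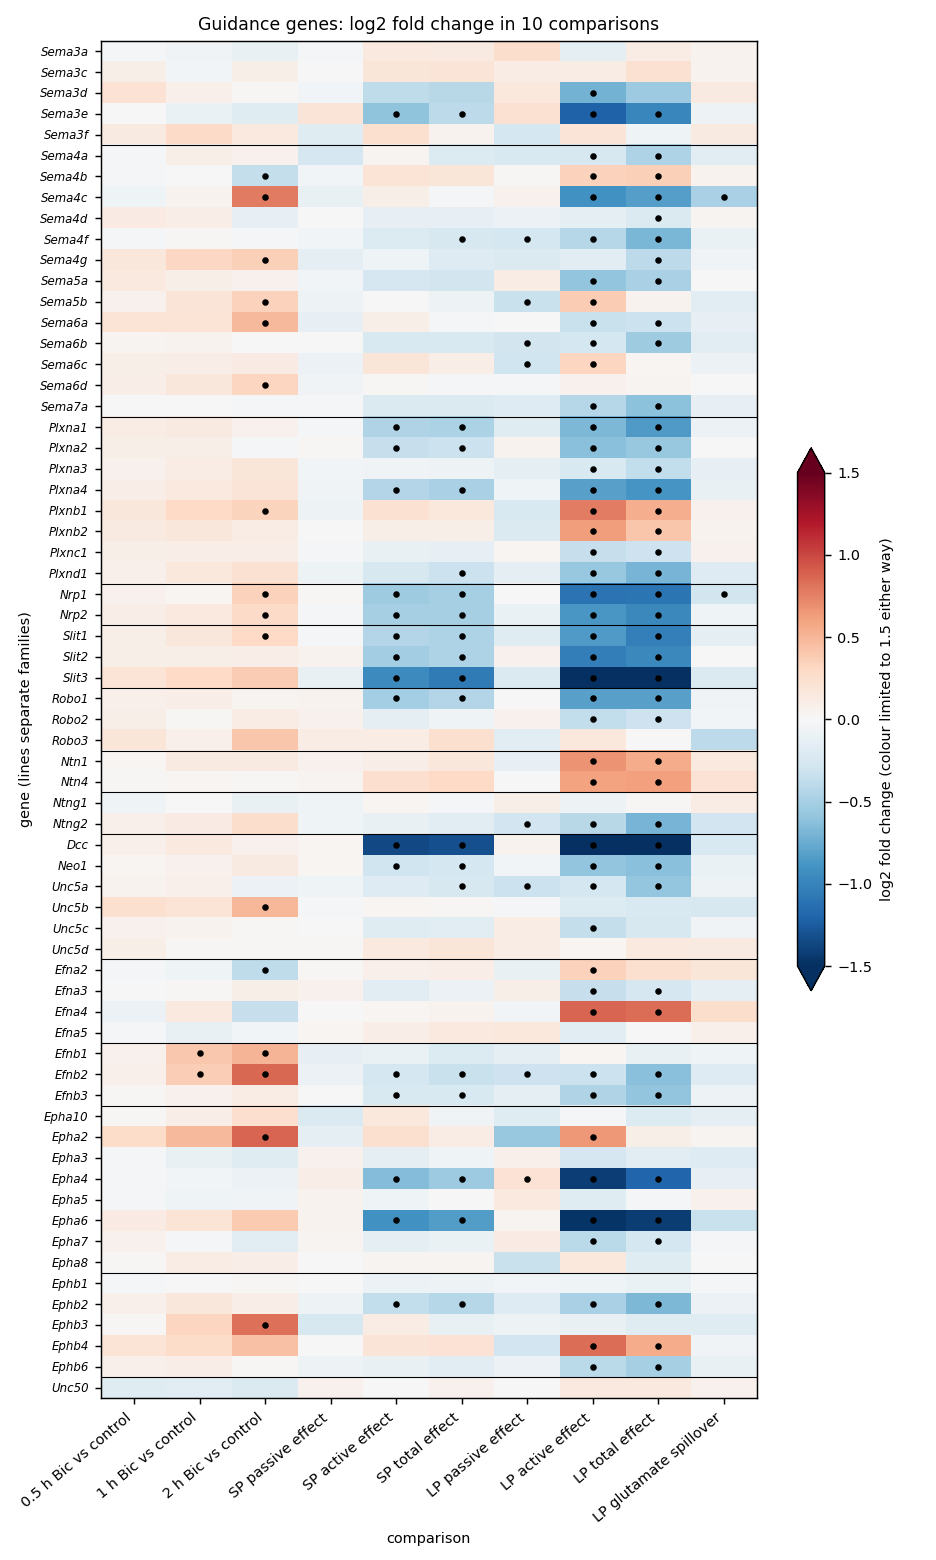
Log2 fold change (colour, blue lower and red higher, limited to 1.5 either way) of the 65 guidance genes (rows, by family) in 10 comparisons (columns); a black dot marks an adjusted p under 0.05. The LP active effect holds 35 dots on blue and 11 on red, the 0.5 h Bic and SP passive columns hold 0.

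Dcc changed most. It stood at 41, 41.3, 45.1, 41.5 and 37.1 CPM in LP TTX and at 8.34, 9.56, 10.9, 9.11 and 12.1 CPM in LP TTX/NMDA, so that the highest library with NMDA was below the lowest without it. The fall was 2.06 ± 0.09 on the log2 scale, to 0.240 of the level with TTX alone (adjusted p = 7.0e-16). In the SP the libraries went from 44.3, 38, 44.1, 45.1 and 40.1 CPM to 16.7, 18.9, 16.5, 13.4 and 17.6 CPM, a change of −1.36 ± 0.08 (adjusted p = 9.4e-14). With 2 h Bic alone Dcc differed from the control by 0.07 ± 0.15 (adjusted p = 0.84), and the control library of preparation 3 held 18.2 CPM beside 33.7 to 48.7 CPM in the others.

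The netrins moved the other way in the LP. Ntn1, the best known netrin, rose by 0.68 ± 0.13 (adjusted p = 2.6e-04) and Ntn4, a netrin of basement membranes, by 0.60 ± 0.11 (adjusted p = 9.6e-05), both higher in 5 of 5 preparations and without overlap. The other netrin receptors had smaller changes than Dcc: Neo1 fell by 0.59 ± 0.07, Unc5c by 0.36 ± 0.09 and Unc5a by 0.26 ± 0.07, and Unc5b (−0.20 ± 0.10, adjusted p = 0.14) and Unc5d (0.03 ± 0.07, adjusted p = 0.80) were not called.

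The Slits fell together with Robo1. Slit3 (chr11:35121224-35708507) stood at 125, 113, 147, 128 and 109 CPM in LP TTX and at 32.3, 32.5, 40.7, 32 and 49.5 CPM in LP TTX/NMDA, a fall of 1.75 ± 0.10 (adjusted p = 9.9e-14) with a wide gap between the groups. In the SP it went from 136, 106, 135, 127 and 123 CPM to 77.3, 57.9, 60.5, 54.0 and 75.6 CPM (−0.96 ± 0.09, adjusted p = 1.3e-09). Slit2 stood at 119, 118, 122, 135 and 121 CPM in LP TTX and at 53.6, 64.1, 53.4, 50.6 and 80.1 CPM with NMDA (−1.03 ± 0.09, adjusted p = 5.2e-10), again without overlap.

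Slit1 went from 200, 167, 159, 181 and 175 CPM to 89.5, 98.0, 97.8, 104 and 105 CPM in the LP (−0.85 ± 0.07, adjusted p = 2.1e-10). Of their receptors, Robo1 fell by 0.82 ± 0.09 (adjusted p = 2.9e-08) and Robo2 by 0.37 ± 0.07 (adjusted p = 3.0e-04), while Robo3, at 1.16 CPM with TTX, was not called (0.16 ± 0.22, adjusted p = 0.63).

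Among the Eph receptors the largest falls were in Epha6 and Epha4. Epha6 (chr16:59653483-60605531) stood at 59.1, 54.1, 70.7, 58.4 and 50.5 CPM in LP TTX and at 19.3, 22.3, 26.4, 18.1 and 20.5 CPM with NMDA (−1.47 ± 0.09, adjusted p = 6.8e-13), and in the SP it went from 51.8 ± 3.93 CPM to 27.9 ± 2.23 CPM (−0.90 ± 0.07). Epha4, which binds ephrins of both classes, stood at 269, 268, 288, 284 and 244 CPM in LP TTX and at 88.1, 107, 102, 91.2 and 123 CPM with NMDA (−1.41 ± 0.08, adjusted p = 4.0e-14). All libraries with NMDA were below all libraries without it for both genes, in both protocols. Epha7 fell by 0.40 ± 0.07, Ephb2 by 0.48 ± 0.07 and Ephb6, which lacks kinase activity, by 0.40 ± 0.07 in the LP.

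The ephrins did not move as one group. Efnb3 (−0.45 ± 0.06), the most abundant guidance gene of the control per kb, Efnb2 (−0.33 ± 0.07) and Efna3 (−0.34 ± 0.07) fell in the LP, and Efna4 (0.87 ± 0.22, adjusted p = 0.0031) and Efna2 (0.34 ± 0.10, adjusted p = 0.0089) rose. Efna4 was the largest rise of the 65 genes, at 0.925 CPM with TTX and 1.68 CPM with NMDA. Ephb4, a receptor of Efnb2, rose by 0.84 ± 0.21 (adjusted p = 0.0038) and Epha2 by 0.65 ± 0.21 (adjusted p = 0.025), from a low level and with overlap between the groups. Epha2 was higher in 4 of 5 preparations and was not called without preparation 1, 3 or 7 (adjusted p between 0.059 and 0.23).

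The semaphorin receptors fell with the neuropilins in front. Nrp1 (chr8:128358604-128503363) stood at 196, 193, 198, 218 and 212 CPM in LP TTX and at 86.4, 102, 95.3, 92.3 and 99.8 CPM with NMDA (−1.11 ± 0.07, adjusted p = 2.2e-13), and Nrp2 at 233, 276, 233, 255 and 216 CPM and at 112, 162, 130, 135 and 126 CPM (−0.88 ± 0.08, adjusted p = 1.1e-09). Plxna4, a partner of the neuropilins, went from 246, 241, 291, 238 and 229 CPM to 132, 148, 153, 134 and 146 CPM (−0.81 ± 0.07, adjusted p = 4.0e-10), Plxna1 fell by 0.67 ± 0.06 and Plxna2 by 0.62 ± 0.07. None of these groups overlapped. The B plexins went up: Plxnb1, the receptor of Sema4d, by 0.77 ± 0.13 (adjusted p = 2.9e-05) and Plxnb2 by 0.63 ± 0.11 (adjusted p = 3.9e-05).

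Of the class 3 semaphorins, which the neuropilins bind or assist, Sema3e stood at 52.0, 43.2, 56.3, 50.4 and 59.0 CPM in LP TTX and at 16.5, 22.4, 27.1, 15.7 and 31.9 CPM with NMDA (−1.21 ± 0.13, adjusted p = 2.4e-08), and Sema3d, at 2.51 CPM with TTX, fell by 0.70 ± 0.19 (adjusted p = 0.0055). Plxnd1, the receptor through which Sema3e acts without a neuropilin, fell by 0.57 ± 0.10 (adjusted p = 4.8e-05). Sema3a (−0.15 ± 0.11), Sema3c (0.11 ± 0.13) and Sema3f (0.19 ± 0.14) were not called. Among the membrane-bound semaphorins 7 of 13 fell and 3 rose, with Sema4c (−0.91 ± 0.10, adjusted p = 3.4e-08) and Sema5b (0.38 ± 0.11, adjusted p = 0.0096) at the ends. Sema5b was not called without preparation 7.

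**Figure D3:**
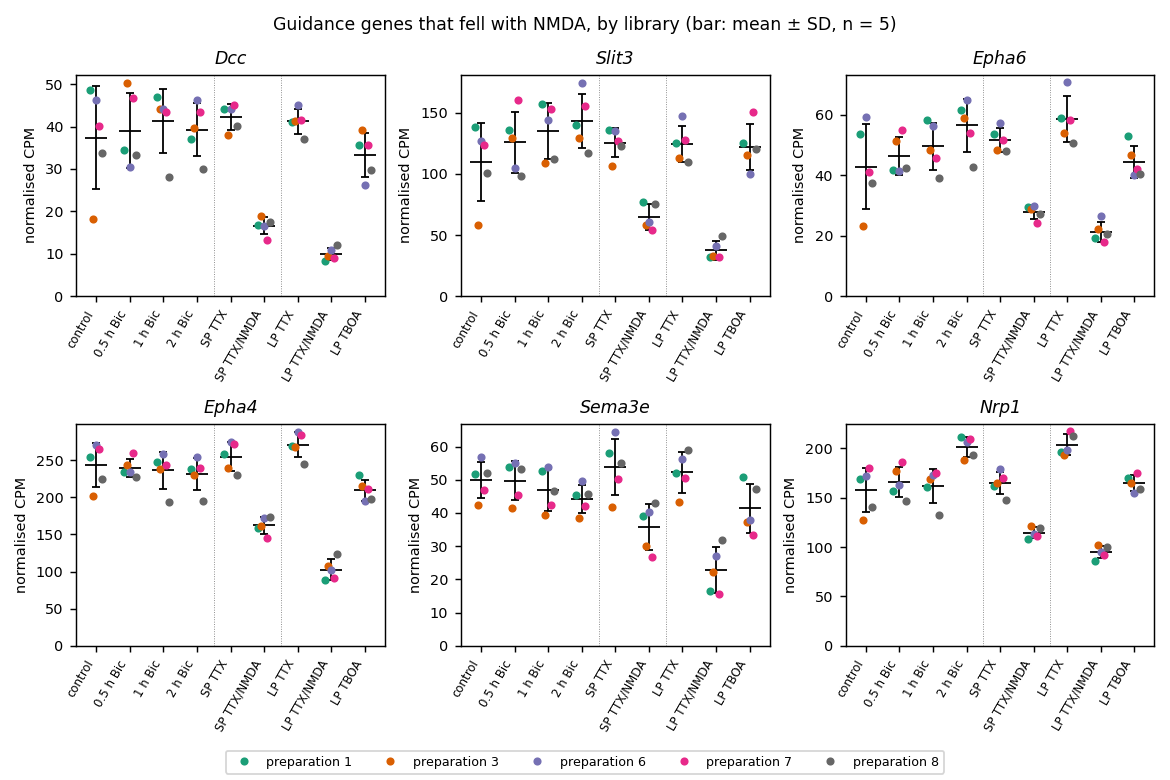
Normalised CPM (vertical axes, from 0) of 6 guidance genes with the largest falls in the LP active effect, in the 9 conditions (horizontal axes); points are libraries coloured by preparation and bars are mean ± SD of 5. In each panel the means of SP TTX/NMDA and LP TTX/NMDA are the lowest of the 9, for Dcc 16.6 and 9.99 CPM.

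Markers of cell types moved with these changes. The summed level of 5 excitatory neuron genes was 2306 to 2798 CPM in LP TTX and 1114 to 1606 CPM in LP TTX/NMDA, and all 5 fell. That of 5 pan-neuronal genes went from a mean of 5644 to 4706 CPM with 2 of 5 lower, and that of 5 inhibitory neuron genes from 1778 to 2065 CPM with 3 of 5 higher. The 6 astrocyte genes, all higher, went from 410 to 824 CPM up to 756 to 1492 CPM. The 5 fibroblast genes, all higher, had means of 106 and 168 CPM, and the oligodendrocyte lineage genes, 4 of 7 higher, of 62.3 and 95 CPM. Microglial and endothelial sums stayed under 10 CPM, and none of the listed genes was at 0 throughout a group. In the SP the excitatory sum went from a mean of 2582 to 1795 CPM with 4 of 5 genes lower. The inhibitory sum went from 1420 to 1827 CPM with 3 of 5 higher, and the pan-neuronal sum from 5305 to 5082 CPM with 1 of 5 lower. The astrocyte sum stood at 695 and 667 CPM with none of 6 called, and no oligodendrocyte lineage or fibroblast gene was called. The part of these marker changes in the values of the guidance genes was not tested.

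The total effect, TTX/NMDA against Bic of the same duration, shares libraries with the active effect. In the SP, 20 of 65 genes were lower and 0 higher, against 3.41% and 0.891% of all genes and 7.75% and 1.63% of expressed genes. The block gave 30 lower and 4 higher, against 15.6% and 11.7% of the genes it tested. In the LP, 35 were lower and 7 higher, against 11.1% and 11.7% of all genes and 25.1% and 20.2% of expressed genes. The LP falls were led by Dcc (−2.0 ± 0.11), Slit3 (−1.96 ± 0.11), Epha6 (−1.43 ± 0.10), Epha4 (−1.19 ± 0.08), Nrp1 (−1.10 ± 0.07), Slit1 (−1.03 ± 0.07), Sema3e (−0.98 ± 0.12) and Nrp2 (−0.97 ± 0.08). The 7 genes above their 2 h Bic level were Efna4 (0.83), Ntn4 (0.61), Ephb4 (0.56), Ntn1 (0.56), Plxnb1 (0.54), Plxnb2 (0.41) and Sema4b (0.36). Ephb4 was not called by DESeq2 (adjusted p = 0.051) or without preparation 1 (0.085).

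Genes that Bic had raised did not share 1 response to NMDA. The 2 h Bic comparison and the LP active effect have no library in common, and of the 14 genes raised by Bic, 6 fell with NMDA, 3 rose and 5 were not called. Of the 49 guidance genes not called after 2 h Bic, 29 fell, 6 rose and 14 were not called. Among expressed genes 26.9% fell and 20% rose. The 14 genes raised by Bic thus fell less often than the 49, and rose at about the share of expressed genes. Of the 14, those that fell were Sema4c, Nrp1, Nrp2, Slit1, Sema6a and Efnb2, and those that rose were Plxnb1, Epha2 and Sema5b. Sema4c with NMDA (14.6, 22, 18.9, 18.7 and 15.8 CPM) overlapped the controls (16.7 to 21 CPM), whereas Ephb3 stayed at 23.7 ± 3.09 CPM, beside 25.4 ± 1.57 CPM with TTX alone (−0.11 ± 0.09, adjusted p = 0.41). Efnb2 with NMDA, at 116 ± 8.32 CPM, lay between its control and its LP TTX level. Both genes that Bic had lowered, Efna2 and Sema4b, rose with NMDA.

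The length of NMDA exposure and of the preceding Bic differ together between the protocols, 0.5 h each in the SP and 1 h each in the LP. Across the 65 genes the SP and LP active effects, which share preparations but no libraries, had a Pearson r of 0.89 and a Spearman rank correlation of 0.87, and 48 genes were lower in the LP, both given as description. The difference between the protocols was called for 10 genes, 9 with a lower and 1 with a higher active effect in the LP, against 1.85% and 0.722% of all genes tested and 4.65% and 1.45% of expressed genes. The block raised this to 35, 27 lower and 8 higher, against 15.1% and 9.85% of the genes it tested, and the count was 5 without preparation 1.

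Sema4c differed most, by −0.98 ± 0.14 (adjusted p = 1.8e-05). In the SP it stood at 14.7, 18.3, 17.3, 16.1 and 21.6 CPM with TTX and at 18.5, 19.6, 17.5, 18 and 20.8 CPM with NMDA, which overlapped (0.09 ± 0.09, adjusted p = 0.63), while in the LP all libraries with NMDA were below all with TTX alone. Of the others, Slit3 differed by −0.78 ± 0.15, Epha4 by −0.74 ± 0.11, Dcc by −0.68 ± 0.13, Nrp1 by −0.56 ± 0.09, Epha6 by −0.56 ± 0.12 and Slit2 by −0.50 ± 0.12, with adjusted p-values from 1.3e-05 to 0.015. Slit1 (−0.39 ± 0.11), Plxna4 (−0.36 ± 0.10) and Plxnb2 (0.56 ± 0.16) passed with adjusted p-values of 0.035, 0.036 and 0.0497.

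These 3 calls, and those of Epha6 and Slit2, were lost without preparation 1, with adjusted p-values of 0.25 for Slit1, 0.096 for Plxna4, 0.12 for Plxnb2, 0.058 for Epha6 and 0.086 for Slit2. Without other preparations Slit1 (3 or 7), Slit2 (6), Plxna4 (3, 6 or 7) and Plxnb2 (3 or 6) were not called either. Plxnb2 stood at 66.3, 66.3, 69.7, 61.3 and 56.1 CPM in SP TTX, at 76.4, 75.4, 54.9, 80.9 and 53.4 CPM with NMDA, at 59.3, 59.5, 44.6, 57.9 and 44.3 CPM in LP TTX and at 96.2, 80.2, 69.0, 102 and 64.4 CPM with NMDA. Its libraries from preparations 6 and 8 were the lowest in both NMDA groups.

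**Figure D4:**
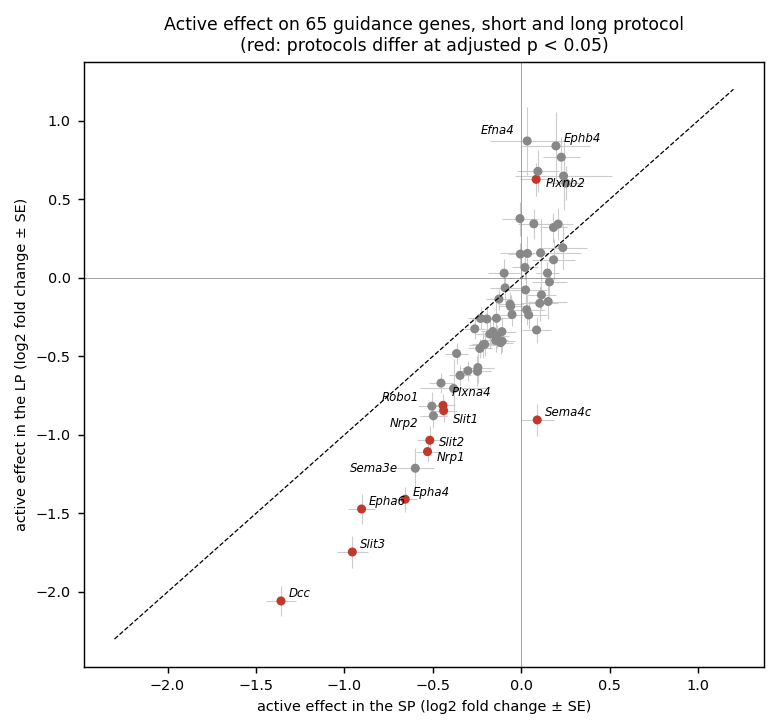
Active effect (TTX/NMDA against TTX, log2 fold change ± SE) of the 65 guidance genes in the SP (horizontal axis) and in the LP (vertical axis), 1 point per gene; red points differ between the protocols at an adjusted p under 0.05, and the dashed line marks equal effects. Most genes on the left lie below the line, with Dcc at −1.36 and −2.06, and Sema4c lies apart at 0.09 and −0.91.

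Glutamate spillover lowered 2 guidance genes and raised 0, against 0.549% and 0.0536% of all genes and 1.27% and 0.0956% of expressed genes. Sema4c stood at 18.4, 22.2, 24.3, 21.6 and 26.2 CPM with TBOA, all below the 29.2 to 36.8 CPM of 2 h Bic (−0.49 ± 0.09, adjusted p = 0.0014). Nrp1 stood at 170, 164, 155, 176 and 159 CPM, all below the 189 to 212 CPM of 2 h Bic (−0.28 ± 0.06, adjusted p = 0.011), and was not called without preparation 1 or 6 (adjusted p of 0.063 and 0.072). Both were also called higher in 2 h Bic than in the control, from the same 2 h Bic libraries. The block called 5 genes, all lower, with Epha6 (−0.32), Ntng2 (−0.29) and Efnb2 (−0.20) added, against 2.23% of the genes it tested called lower and 0.442% higher. Dcc (−0.22 ± 0.09, adjusted p = 0.52) and Slit3 (−0.22 ± 0.09, adjusted p = 0.48), the genes with the largest active effects, were not called. Without preparation 8 the number called was 6, all lower, and held both, with adjusted p-values of 0.031 and 0.0067. Without preparation 6 it was 1, Sema4c.

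Guidance genes are long. From start to end the median was 108 kb, beside 27.2 kb for the 12713 expressed protein-coding genes, and Dcc, at 1097 kb, and Epha6, at 952 kb, were the longest of the 65. Longer genes fell more with NMDA, among guidance genes and among all: Spearman's rank correlation between length and the LP active effect was −0.39 across the 65 and −0.30 across the 12713, and in the SP −0.38 and −0.33. These are descriptions across genes, which share libraries and are not independent replicates.

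Within length classes, guidance genes fell in the LP active effect in 9 of 23 cases under 30 kb, 5 of 8 from 30 to 100 kb, 12 of 18 from 100 to 300 kb and 9 of 16 of 300 kb or more. The shares of protein-coding genes called lower in the same classes were 17.5%, 35%, 44.3% and 57.6%. Sema4c, at 9.71 kb, and Efnb3, at 6.11 kb, were among the short genes that fell. In the LP passive effect the relation ran the other way, with a rank correlation of 0.52 across the guidance genes and 0.19 across all, and after 2 h Bic the values were −0.12 and 0.09.

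**Figure D5:**
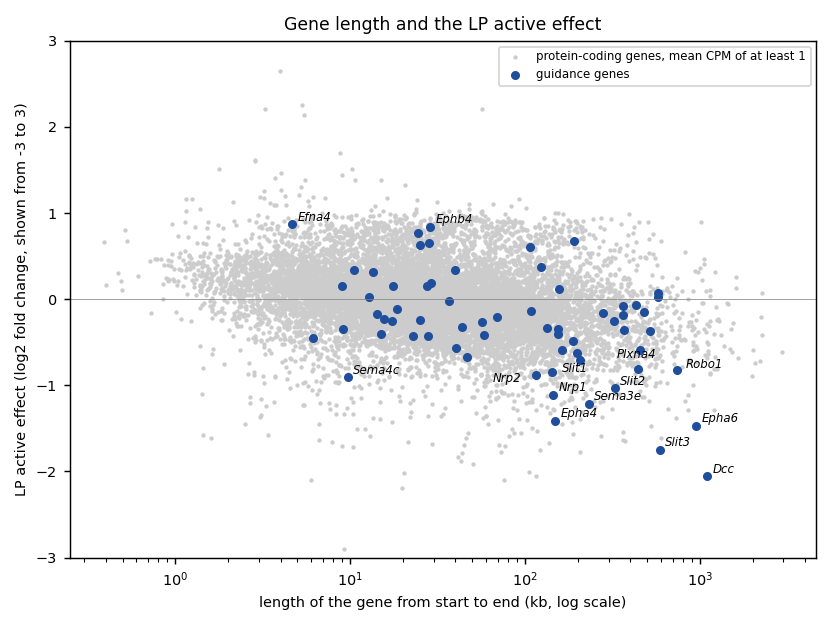
LP active effect (log2 fold change, vertical axis, shown from −3 to 3) against gene length from start to end (kb, log scale, horizontal axis), 1 point per gene; grey points are the 12713 expressed protein-coding genes and blue points the guidance genes. Blue points of 300 kb or more hold 9 called falls and 0 called rises, with Dcc lowest at −2.06.

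Genes that act beside or below these receptors were taken from lists made with earlier results of these data known. Of 50 cytoplasmic effectors, such as collapsin response mediators, adaptors and kinases, 2 were higher and 2 lower after 2 h Bic, against 8.18% and 10.4% of expressed genes, with Vasp, an actin-binding protein, at 0.58 and Nck1, an adaptor of receptor kinases, at −0.48. In the SP active effect 2 rose and 6 fell, against 1.73% and 7.8% of expressed genes, and in the LP 5 rose and 24 fell, against 20% and 26.9%, with a median change of −0.17. The largest LP changes were Dock1 (0.89), Abl2 (−0.88), Rock2 (−0.86) and Mical1 (0.72). Of 22 other guidance cues and receptors, 4 were higher and 0 lower after 2 h Bic, against the same 8.18% and 10.4%, led by Flrt3 (1.26), a ligand of Unc5 receptors and partner of Robo1, and Lrrc4 (1.00), a partner of Ntng2. With NMDA 0 rose and 6 fell in the SP, where Flrt3 fell by 0.75, and 1 rose and 12 fell in the LP, led by Cntn1 (−0.77) and Nrcam (−0.74), adhesion molecules of the axon. Flrt3 was not called in the LP active effect (−0.22, adjusted p = 0.13). With TBOA 0 of the 50 effectors were called, and 1 of the 22, Lrrc4 (−0.28), against 1.27% of expressed genes called lower.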

How the data were processed

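RNA from 45 cultures was sequenced by the authors, who made strand-specific libraries from poly-A RNA, converted the reads with bcl2fastq (2.20.0.422), aligned them with STAR (2.5.4b) to GRCm38 with Ensembl release 94, and counted sense reads per gene with featureCounts (1.6.5), leaving out reads with several places or genes. They deposited these raw counts without normalization. Genes whose reads are shared with a near-identical copy are therefore undercounted.

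Members, lists and alternatives were chosen with earlier results of these data known. Each pair of conditions was compared on its own 10 libraries with edgeR (4.0.16, R 4.3.3; TMM, quasi-likelihood F test, no block, genes with at least 1 read) and genes were called at a Benjamini-Hochberg adjusted p under 0.05. Interactions used the 20 libraries of both protocols. The SE is the absolute log2 fold change over the square root of F. Counts with known changes were simulated for LP TTX/NMDA against LP TTX only. The directions were recovered, and false calls ran above the nominal rate without the block and near it with the block. The simulated fit with the block also used filterByExpr, so that block and filter cannot be told apart there. Calls in the text come from the fit without the block unless another is named. In each comparison the called members were named where a direction had 10 or fewer, otherwise the 8 with the largest change, and their binding partners may be named too. Library values are given for the 12 largest changes, and, chosen after their values were seen, for Efnb2, Ephb3 and Plxnb2. Gene positions are from GENCODE M21, and promoters from RefSeq (GRCm38.p6). Alternatives were DESeq2 (1.42.0), its size factors in edgeR, filterByExpr, 1 fit of all 45 libraries, leaving out each preparation, and the preparation as a block over the genes that pass filterByExpr. The labels give each preparation the same replicate number in all conditions. Same-numbered libraries deviated together from their condition means, with mean correlations between 0.38 and 0.57 across 13601 genes and single pairs down to −0.23. No libraries were identical.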

Additional observations from a re-analysis of the deposited data

Results flagged for a closer look

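The active effect differed between the protocols for 10 guidance genes by edgeR's interaction test, LP minus SP. The log2 differences were −0.98 for Sema4c, −0.78 for Slit3, −0.74 for Epha4, −0.68 for Dcc, −0.56 for Nrp1, −0.56 for Epha6, −0.50 for Slit2, −0.39 for Slit1, −0.36 for Plxna4 and 0.56 for Plxnb2.

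In 5 of the 135 groups of 5 libraries looked at for 15 genes, 1 library lay far from the other 4 by Dixon's criterion, and chance alone gives about 1 such group in 20. Dcc in the 1 h Bic library of preparation 8 was at 28.1 CPM, with the others from 43.5 CPM up. Sema4c in the same library was at 23.1 CPM, with the others up to 18.5 CPM. Slit2 was at 105 CPM in the 2 h Bic library of preparation 8, with the others from 118 CPM up, and at 135 CPM in the LP TTX library of preparation 7, with the others up to 122 CPM. Plxna4 was at 291 CPM in the LP TTX library of preparation 6, with the others up to 246 CPM.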

How the results depend on the processing

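With the preparation as a replicate block the number of guidance genes called was 4 after 1 h Bic, 34 in the SP total effect, 30 in the LP passive effect, 5 with glutamate spillover and 35 for the LP minus SP difference of the active effect. In 1 fit of all 45 libraries it was 4 after 1 h Bic, 3 in the LP passive effect and 1 with spillover, and with DESeq2's size factors it was 4 with spillover. Leaving out 1 preparation gave 1 to 2 genes after 1 h Bic (1 without preparation 1 or 7), 14 to 18 after 2 h Bic, 15 to 18 in the SP active, 16 to 21 in the SP total, 4 to 10 in the LP passive (4 without 6 or 7, 5 without 3), 42 to 47 in the LP active and 41 to 45 in the LP total effect, 1 to 6 with spillover (1 without 6, 6 without 8) and 5 to 15 for the difference of the active effect (5 without 1, 15 without 8). For these counts the cause was not tested, beyond the smaller number of libraries. Among the fold changes of single genes that are named, 1768 values under the alternatives kept direction and call, 64 lost the call, 28 gained it and 0 reversed. The block ended no call. Depth limits the genes near 1 CPM (Epha2, Efna4, Robo3), whose SEs were 0.20 or more.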
